A study of Homo sapiens with 34 samples.

Results

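NOTCH receptors act on genes through RBPJ, a protein that binds DNA. When a receptor is cleaved, its intracellular domain enters the nucleus, joins RBPJ and recruits coactivators of the MAML family, whereas RBPJ without that domain can hold corepressors on the same DNA. In other cell systems active NOTCH is known to raise RBPJ occupancy at a subset of sites, many of them enhancers, and pairs of head-to-head RBPJ motifs at a fixed spacing allow 2 such complexes to bind together.

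The sites described here are RBPJ peaks found with an induced NOTCH1 intracellular domain whose summit had no RBPJ summit of the other conditions nearby. They come from ChIP-seq, the sequencing of DNA fragments pulled down with a chromatin protein. The cells were MB157, a line of NOTCH-driven triple-negative breast cancer, and MB157R, its derivative grown for 25 weeks with a γ-secretase inhibitor (GSI, 1 µM), which blocks receptor cleavage. In MB157R iN1-ICD, a doxycycline-inducible lentiviral vector supplied HA-tagged NOTCH1 without its extracellular part. The study describes the NOTCH1 gene of MB157 itself as lacking exons for that part. The other RBPJ lists came from MB157R with the empty vector (iEV), from MB157 with the vector for HA-tagged SOX2 (iSOX2) and from MB157 iEV. All cells received 1 µg/ml doxycycline for 72 h. Each RBPJ list was called on 3 pooled libraries out of the 34 of the series, against the pooled inputs. The sites therefore carry 1 value per condition and no spread between replicates, and every interval and p value below covers counting error over sites of these lists only. The study calls its replicates biological.

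Sites were chosen by position: a summit of the MB157R iN1-ICD RBPJ list on chromosomes 1 to 22 and X was taken if no summit of the other 3 RBPJ lists lay less than 500 bp away. This left 7973 of 37297 iN1-ICD summits (21.4%), out of 290228 peaks in the 8 lists of the series. They are called iN1-ICD-only sites, which says that no summit was called nearby elsewhere, not that RBPJ was absent there. By the same rule, 14968 of the 46601 summits of MB157R iEV were called only there. For MB157 iSOX2 the count was 10436 of 34521 and for MB157 iEV 5085 of 25243, so each list had such sites. The caller's genome-wide background, in fragments, was 1.75 for iN1-ICD, 1.82 for MB157R iEV, 2.04 for MB157 iSOX2 and 1.60 for MB157 iEV. It was lowest for MB157 iEV, and read totals per library were not used here. The other 29324 iN1-ICD summits are the comparison below. Of these, 13671 were near a summit of MB157R iEV alone and 7974 near a summit of all 3 lists.

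DNA of some iN1-ICD-only sites is shown before the values, to let the searched motifs be seen in place at the sites and genes described below. Most sites held neither an RBPJ nor an AP-1 motif and are not shown. The first set holds the RBPJ motif, searched as TGTGGGAA, CGTGGGAA, TGTGAGAA or CGTGAGAA on both strands within 100 bp of the summit. These are stretches of the plus strand of hg38 with the motif in capitals, and TTCCCACG is the motif read from the minus strand.
IGFBP3, chr7:45972832-45972891: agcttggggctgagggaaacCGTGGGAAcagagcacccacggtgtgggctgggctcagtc
KRT17, chr17:41652800-41652847: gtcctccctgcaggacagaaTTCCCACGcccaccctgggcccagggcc
TNFSF10, chr3:172538447-172538505: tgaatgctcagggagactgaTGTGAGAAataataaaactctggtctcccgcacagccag
HES1, chr3:194137143-194137203: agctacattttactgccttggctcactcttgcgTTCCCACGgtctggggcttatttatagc
JAG1, chr20:10610429-10610530: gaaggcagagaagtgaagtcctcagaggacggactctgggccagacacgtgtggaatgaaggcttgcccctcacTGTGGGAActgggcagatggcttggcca
HEY2, chr6:125764464-125764565: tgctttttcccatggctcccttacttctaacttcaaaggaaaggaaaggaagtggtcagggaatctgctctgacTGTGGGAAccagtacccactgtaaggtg
The second set holds 2 RBPJ motifs head to head, a forward copy followed after 15 to 17 bp by a reverse copy, where 1 copy matches fully and the other has at most 1 mismatch. Both copies are in capitals.
DTX1, chr12:113089613-113089673: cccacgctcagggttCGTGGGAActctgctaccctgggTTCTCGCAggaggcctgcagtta
CCDC81, chr11:86503902-86503963: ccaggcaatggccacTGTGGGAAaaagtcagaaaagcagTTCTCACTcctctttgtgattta
RPL38, chr17:74126365-74126425: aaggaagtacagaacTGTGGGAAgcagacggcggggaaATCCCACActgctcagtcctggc
SYF2, chr1:25106607-25106668: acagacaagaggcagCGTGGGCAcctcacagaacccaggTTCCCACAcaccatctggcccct
EIF4A3, chr17:80152642-80152703: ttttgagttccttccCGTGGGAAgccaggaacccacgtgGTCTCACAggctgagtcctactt
The third set holds the AP-1 motif (TGACTCA or TGAGTCA, bound by FOS and JUN proteins), and no RBPJ motif.
PLEKHG3, chr14:64758015-64758077: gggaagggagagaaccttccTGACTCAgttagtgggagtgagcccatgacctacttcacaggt
F2RL1, chr5:76804407-76804465: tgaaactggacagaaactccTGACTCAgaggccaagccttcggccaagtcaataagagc

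Most iN1-ICD-only sites were small peaks. Their fold, the authors' enrichment at the summit over local background, had a median of 4.21, against 5.13 at the other iN1-ICD summits. A median of 13 fragments lay at the summit, against 17, and the peak regions were 298 bp wide at the median, against 460 bp. The same peak lists chose the sites, so these values describe the choice and were not tested. The share of iN1-ICD-only sites was lower at each step of fold, with 103 of 1865 summits (5.52%) above 10 and up to 15 and 25 of 954 (2.62%) above 15, against 456 of 1162 (39.2%) at a fold of 3 or less. In all, 128 sites had a fold above 10.

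**Figure D1:**
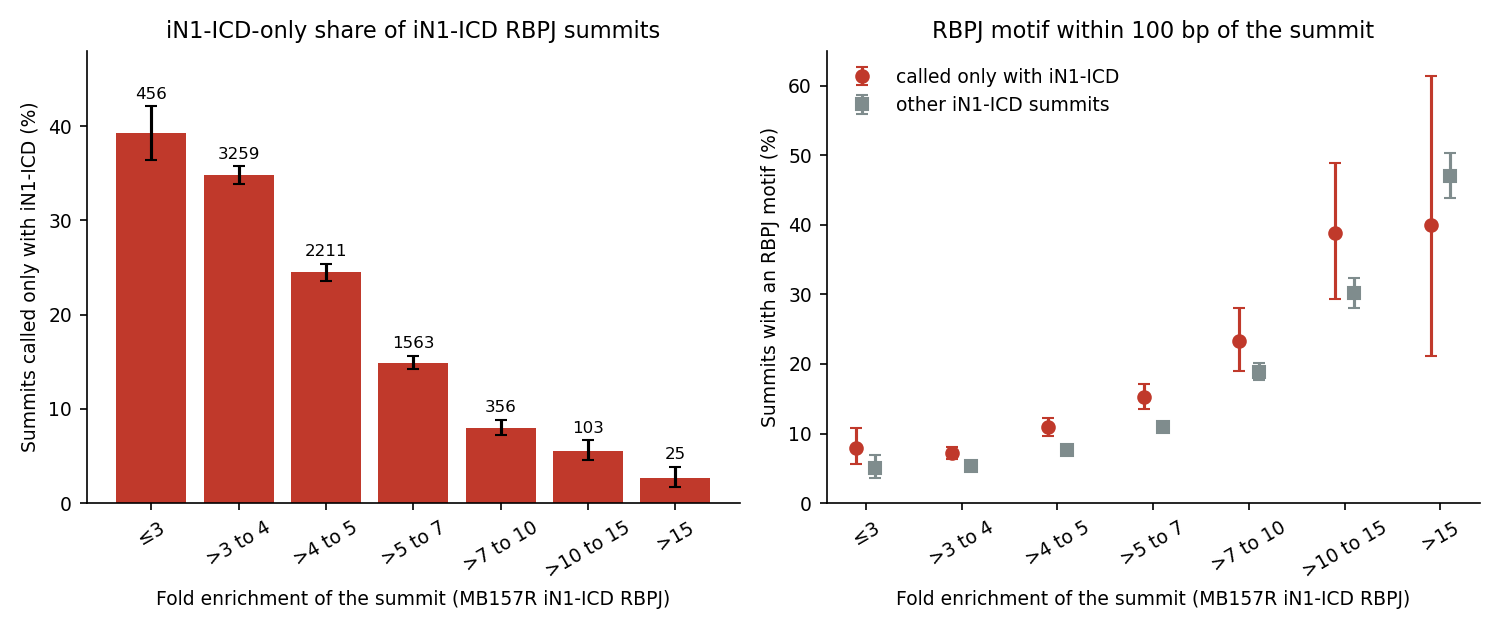
Left, share of MB157R iN1-ICD RBPJ summits that were called only with iN1-ICD (y axis, %) by fold of the summit, with 95% exact binomial intervals and the number of such sites above each bar. Right, share of summits with an RBPJ motif within 100 bp (y axis, %) at the same folds for iN1-ICD-only sites (circles) and other iN1-ICD summits (squares), with the same kind of interval. The iN1-ICD-only share falls to 2.62% in the highest bin, and the motif is the more frequent at iN1-ICD-only sites in every bin except the highest.

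The distance rule divides a range of cases. A peak region of another RBPJ list overlapped that of 1802 iN1-ICD-only sites (22.6%, 95% exact binomial interval 21.7 to 23.5), and 1680 of these were overlapped by a MB157R iEV peak, so that a summit had been called inside or beside a broader RBPJ region elsewhere. At the edge of the rule, 622 sites lay 0.5 to 0.6 kb from the nearest other RBPJ summit, with a median fold of 4.28, while 756 summits at 0.4 to 0.5 kb were left out, with a median fold of 4.26. At the far end, 2286 sites (28.7%) were at least 10 kb from any RBPJ summit of the other lists and 586 at least 50 kb.

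**Figure D2:**
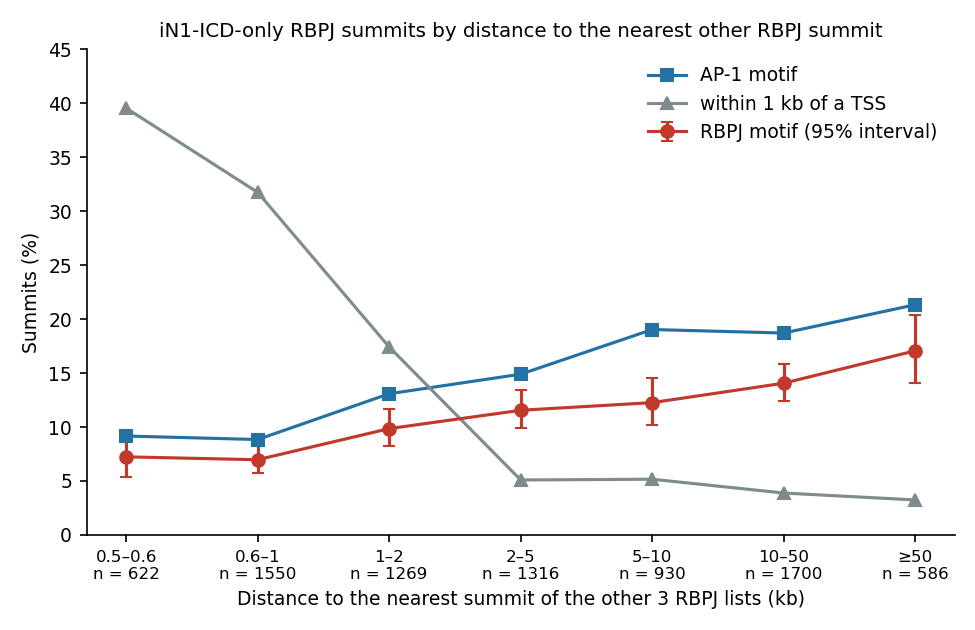
Share of iN1-ICD-only RBPJ sites (y axis, %) with an RBPJ motif (circles, 95% exact binomial interval), with an AP-1 motif (squares) or within 1 kb of a transcription start site (triangles), by distance to the nearest RBPJ summit of the other 3 lists (x axis, kb, with the number of sites). In the nearest and the farthest bin the RBPJ motif is at 7.23% and 17.1% of sites and the promoter share is 39.5% and 3.24%.

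The strongest iN1-ICD-only sites included ones near KRT17, TGM2, DTX1, TFF1 and HES1. The 25 sites of highest fold with a protein-coding transcription start site (TSS) within 50 kb, at 1 per gene, had folds of 13.7 to 26.9 and 37 to 127 fragments at the summit. Of these 25, 10 held an RBPJ motif, 4 an AP-1 motif and 11 neither. Only 2 lay within 1 kb of a TSS. A peak region of another RBPJ list overlapped 8 of them, and 11 lay at least 5 kb from any other RBPJ summit.

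The site with the most fragments of these 25 was 28.0 kb upstream of KRT17, a keratin of basal epithelium (chromosome 17, 41652313 to 41653234). It had 127 fragments over a local background of 3.76 (fold 26.9) and an RBPJ motif. Its region was overlapped by a MB157R iEV peak whose nearest summit was 1.08 kb away with a fold of 7.39. In intron 6 of TGM2, a transglutaminase that crosslinks proteins (chromosome 20, 38143885 to 38145245), 77 fragments gave a fold of 26.1, with a MB157R iEV summit 0.838 kb away and a SOX2 summit of MB157R iEV 0.270 kb away. Similar cases were intron 26 of MTHFD1L, a mitochondrial folate enzyme (fold 24.6), and a site nearest to PLEKHG3 inside intron 32 of the spectrin gene SPTB (fold 23.9, AP-1 sequence above). In these 4 cases a MB157R iEV summit lay 0.708 to 1.08 kb from the iN1-ICD summit, so they are summits set apart within RBPJ regions that MB157R iEV also had.

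Other sites had no overlapping RBPJ peak. The site in intron 3 of DTX1, which encodes a Deltex protein that acts on NOTCH (chromosome 12, 113089368 to 113089817), had 54 fragments over a background of 1.75 (fold 20.0) and the paired motifs printed above. The nearest summit of MB157R iEV was 48.9 kb away and that of MB157 iEV 46.2 kb, while that of MB157 iSOX2 was 2.605 kb away. At the promoter of TFF1, a secreted trefoil peptide of luminal epithelium (chromosome 21, 42366608 to 42367249), the summit was 0.235 kb upstream of the TSS with a fold of 16.7 and the nearest other RBPJ summit was 15.4 kb away. Neither an RBPJ nor an AP-1 motif was found there. In intron 12 of ZMYND8, a chromatin reader (fold 18.8), 2 RBPJ motifs lay within 100 bp and the nearest other RBPJ summit was 15.6 kb away. TNFSF10, which encodes the death ligand TRAIL, had a site 15.01 kb upstream of its TSS (fold 16.4), with a MB157R iEV summit 2.98 kb away. F2RL1, a protease-activated receptor, had one 14.5 kb upstream (fold 16.6), 1.77 kb from a MB157R iEV RBPJ summit and 0.038 kb from a SOX2 summit of MB157R iEV.

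Several of the highest folds lay beyond 50 kb from any protein-coding TSS and were picked after their values had been seen. The highest of all iN1-ICD-only sites was 51.0 kb upstream of IGFBP3, a binding protein of insulin-like growth factors (chromosome 7, 45972346 to 45973269), with 99 fragments, a fold of 27.3 and the RBPJ motif printed above. Summits of MB157 iEV and MB157R iEV lay 1.198 and 5.33 kb from it. A site 165 kb upstream of ZNF337 (fold 26.6, RBPJ motif) was overlapped by peaks of all 3 other lists. A site 141 kb downstream of the TSS of INHBB, an inhibin subunit, had a fold of 26.2. Sites in intron 1 of NHS (20.7) and intron 2 of CHST11, a sulfotransferase (19.2), followed. These last 3 held neither an RBPJ nor an AP-1 motif and lay at least 13.0 kb from any other RBPJ summit.

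**Figure D3:**
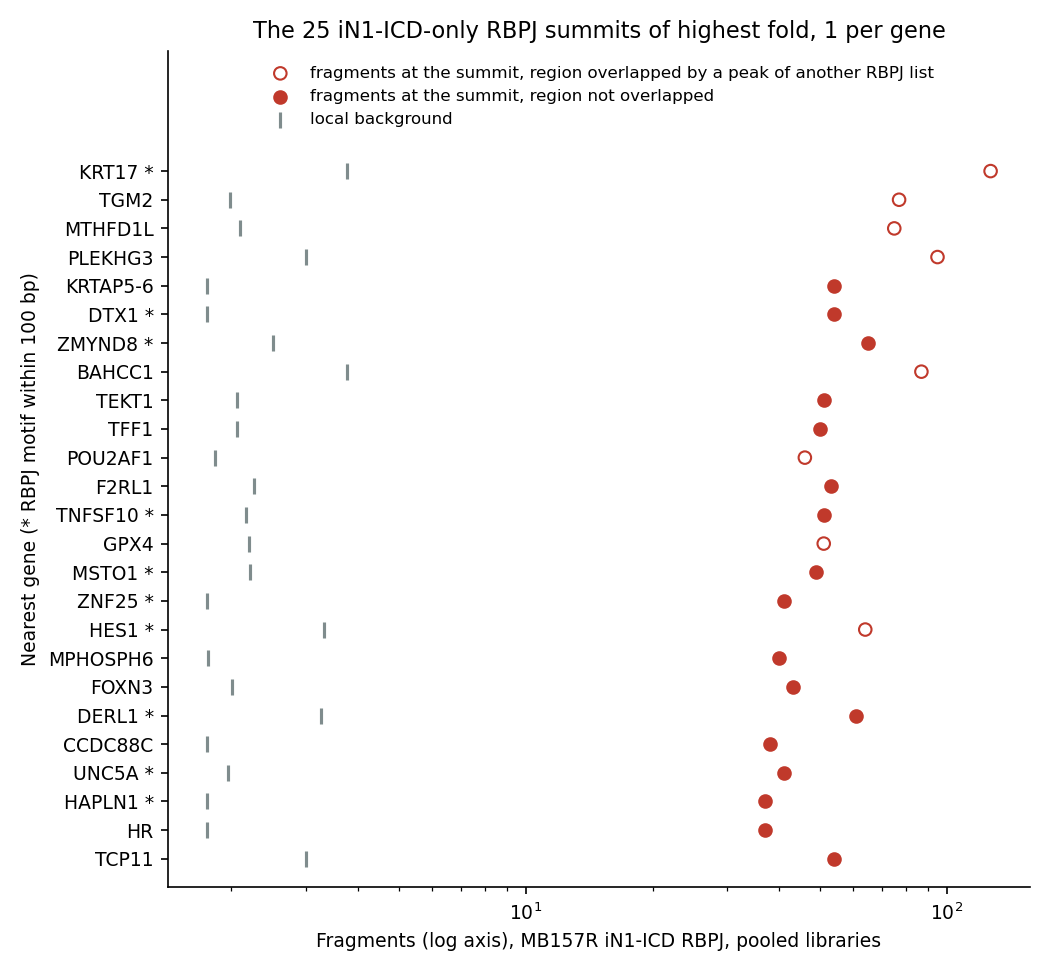
Fragments at the summit (circles, log x axis) and local background (bars) of the 25 iN1-ICD-only RBPJ sites of highest fold with a TSS within 50 kb, from the highest fold at the top. Open circles are the 8 sites whose region is overlapped by a peak of another RBPJ list and asterisks the 10 with an RBPJ motif. All 25 had at least 37 fragments.

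At the genes of the NOTCH pathway, iN1-ICD-only sites mostly lay beside other iN1-ICD RBPJ sites. Each site was counted for the protein-coding gene whose TSS was closest, up to 50 kb, which 5582 of the 7973 sites had, and 3957 of 19962 protein-coding genes received one (19.8%). Of the 12012 genes with any iN1-ICD RBPJ site, 32.9% had an iN1-ICD-only site. Among 30 canonical NOTCH target genes, 28 had any iN1-ICD site and 16 (53.3%) an iN1-ICD-only site. The count was 4 of 10 receptors and ligands and 11 of 38 modulators and complex subunits. Genes with many RBPJ sites have more chances to hold an iN1-ICD-only site, and no list was tested.

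Among NOTCH target genes the repressors HES1, HES2, HES4, HES5, HEY1 and HEY2 each had 1 to 3 iN1-ICD-only sites. MB157R iEV peaks overlapped the sites of HES4 (17 fragments) and HEY1 (19 fragments) and the strongest of HES2 (20 fragments). The nearest MB157R iEV summits had 178, 61 and 35 fragments, in that order. The site of HES5 had 8 fragments, the lowest count in the iN1-ICD list. The strongest site of HES1 (chromosome 3, 194136852 to 194137662) had 64 fragments, a fold of 15.1 and an RBPJ motif. It lay 1.015 kb downstream of a TSS in intron 3, and its region was overlapped by peaks of all 3 other lists. The site of HEY2 (chromosome 6, 125764374 to 125764667, fold 6.62) was 14.9 kb downstream of the TSS, with an RBPJ motif and no overlapping peak. DTX1 was the only one of the 16 without any other iN1-ICD site. NRARP, a feedback inhibitor of NOTCH, had 3 iN1-ICD-only sites beside 9 others, the strongest with a fold of 5.79 inside intron 19 of the neighboring gene EXD3. TNFRSF19, a receptor of the tumor necrosis factor family, had a site in its intron 4 with a fold of 8.35, the nearest other RBPJ summit being 38.8 kb away. MYC, on chromosome 8, had 2 sites with folds of up to 3.82, the stronger over a local background of 4.76 fragments.

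Of the ligands, JAG1 had 2 iN1-ICD-only sites. The stronger (chromosome 20, 10610306 to 10610638, 36 fragments, fold 13.4) lay 37.6 kb downstream of a JAG1 TSS in intron 6 of the neighboring gene SLX4IP, held an RBPJ motif and was 5.68 kb from the nearest other RBPJ summit. DLL4 had 2 sites and JAG2 1, all with folds of at most 4.36. Among complex subunits and modulators, CTBP2, a corepressor, had the strongest (fold 9.27, 29.5 kb upstream, RBPJ motif), a summit of MB157 iEV lying 0.512 kb away and its peak overlapping. The corepressors NCOR1 and SPEN had 3 and 2 sites, the Fringe enzyme LFNG 3 and the coactivator MAML2 2, with folds of up to 5.99.

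NOTCH1 had 9 iN1-ICD-only sites by nearest TSS, beside 16 other iN1-ICD sites. Inside the gene (chromosome 9, 136494433 to 136546048, minus strand, 34 exons) lay 6 iN1-ICD-only sites, and 3 of them differed from the rest in background. They covered exon 34 (136496161 to 136497414, 70 fragments), exon 31 (136500589 to 136500797, 35 fragments) and exons 28 to 30 (136501787 to 136502388, 38 fragments). Their local background was 19.4, 10.5 and 13.0 fragments, against 2.01 to 2.21 at the other 3 iN1-ICD-only sites of the gene. All of the first 2 regions was exon, and 55.1% of the third. These exons encode the part of NOTCH1 that the induced vector also carries, so fragments of the vector and of the gene cannot be told apart, and these 3 sites are not read as RBPJ occupancy. In all, 57 of the 7973 sites and 260 of the 29324 others had a background above 10 fragments.

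Genes outside the pathway also had iN1-ICD-only sites. Over all protein-coding genes the share was 19.8%, and 32.9% among those with any iN1-ICD RBPJ site. Among 11 basal mammary genes 9 had one. EGFR, the receptor of epidermal growth factor, had 5 sites (highest fold 11.1, intron 1, 42 fragments). That strongest site was overlapped by a MB157R iEV peak, the nearest MB157R iEV summit had 47 fragments, and a SOX2 summit of MB157R iEV lay 0.050 kb away. KRT5, a basal keratin, had a site 0.331 kb upstream with 14 fragments. MB157R iEV and MB157 iSOX2 peaks overlapped it, and the nearest MB157R iEV summit had 46 fragments. Of 17 AP-1 family genes 9 had one, as did 8 of 19 SOX genes, 6 of 10 mesenchymal and EMT genes, 4 of 10 epithelial, 4 of 8 luminal mammary and 8 of 15 stem cell genes. SOX2 itself had 1 small site (10 fragments, fold 3.73) 27.8 kb downstream of its TSS. Among genes of other tissues there were 0 of 8 liver, 0 of 8 blood cell and 1 of 8 muscle genes, and 4 of 24 ribosomal protein genes. Few of these tissue genes could have one, since any iN1-ICD RBPJ site was found at 1 liver, 3 blood cell and 2 muscle genes. It was found at 16 ribosomal protein genes and at all 11 basal mammary genes. The NOTCH signature of the study had 45 of 76 annotated genes (59.2%) with a site. It was chosen with RNA data of the same iN1-ICD cells and is not independent of the condition.

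**Figure D4:**
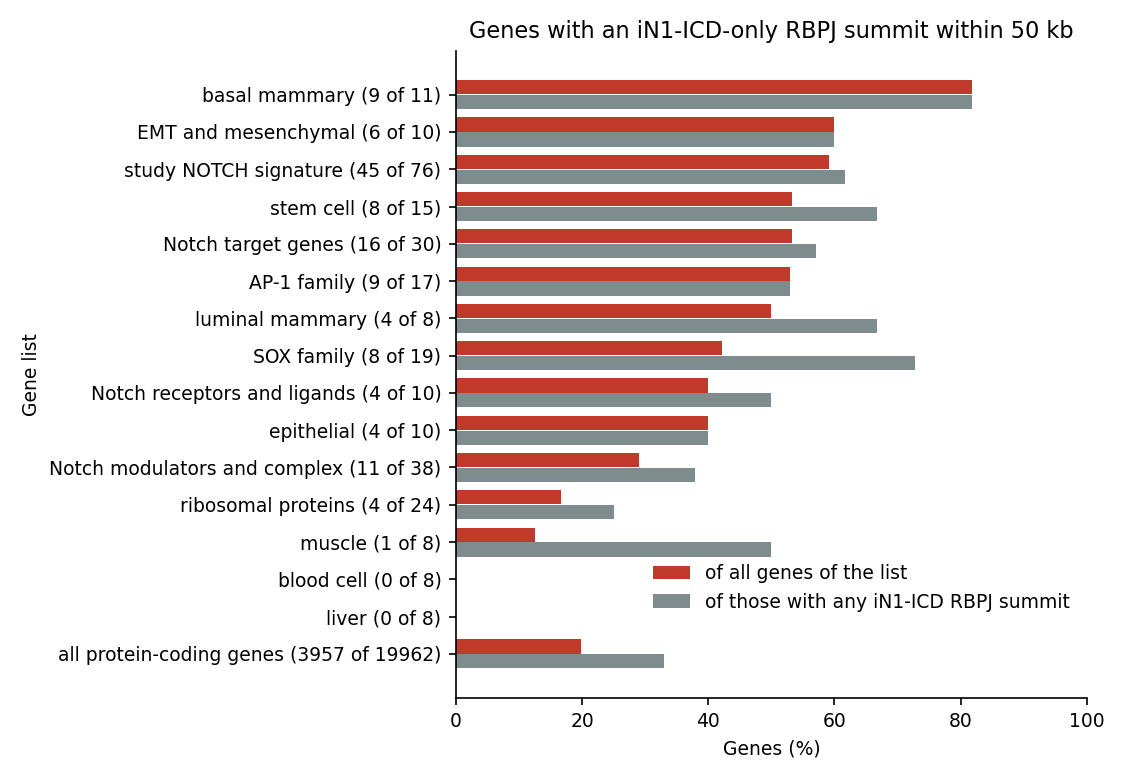
Share of genes (x axis, %) with an iN1-ICD-only RBPJ site given to their TSS within 50 kb, of all genes of a list (upper bars) and of those with any iN1-ICD RBPJ site (lower bars). Counts stand beside each list, and all protein-coding genes (19.8% and 32.9%) are at the bottom. Basal mammary genes have the highest share, 9 of 11, and liver and blood cell genes have none. Only 1 liver and 3 blood cell genes had any iN1-ICD RBPJ site.

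Of the 3957 genes, 2893 had 1 iN1-ICD-only site and 2 had as many as 11. These were SMAD3, a transducer of TGF-β signals, with 11 sites over 179 kb of chromosome 15 (folds 3.07 to 6.43) and PTK2, the focal adhesion kinase (folds 2.66 to 6.65). SORBS2, MICAL2, NOTCH1, SEPTIN9 and FBLN2 had 9 each, and ALDH1A2, HRH1 and WNT7A 8 each. The 9 of NOTCH1 include those over exon 31 and exons 28 to 30, which are not read as RBPJ occupancy. An RBPJ motif lay at 1 of the SMAD3 and 2 of the PTK2 sites. The PTK2 sites, on chromosome 8, had a local background of 3.31 to 4.76 fragments. Chromosome 8 alone had a higher median background in MB157R iN1-ICD (2.51 fragments) than in MB157R iEV (2.30). Of its iN1-ICD summits 21.6% were iN1-ICD-only, against 21.4% over all chromosomes. The part of background in the PTK2 sites was not tested. FBLN2, HRH1 and WNT7A lie in a stretch of chromosome 3 (11137093 to 13880071) where the local background of RBPJ peaks had a median of 9.43 fragments in MB157R iN1-ICD and 9.34 in MB157R iEV, against 2.89 in MB157 iEV and 3.62 in MB157 iSOX2. The rest of the chromosome was at 2.21, 2.51, 2.21 and 2.78 fragments in the same order of lists. DNA copy number was not measured, and its part in the 46 iN1-ICD-only sites of this stretch was not tested.

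The RBPJ motif lay within 100 bp of 883 iN1-ICD-only sites (11.1%, 95% exact binomial interval 10.4 to 11.8), against 12.3% of the other iN1-ICD summits. In windows of the same length 1 kb to each side of iN1-ICD-only sites it was found in 3.22%. The difference between the classes was small (odds ratio 0.889, 0.822 to 0.961, adjusted p = 0.00514 by Fisher's exact test, two-sided, over 19 motifs) and turned round once sites of like fold were compared. Over 5 bins of fold the odds ratio was 1.40 (1.29 to 1.52, Mantel-Haenszel), so across these bins the motif was more frequent at iN1-ICD-only sites. Away from promoters it was 1.29 over bins of fold (1.18 to 1.42), a comparison added after the data had been seen. Leaving out sites overlapped by another RBPJ peak gave 1.02 without bins (0.941 to 1.11). For instance, 15.3% of iN1-ICD-only sites and 10.9% of the others held it at folds above 5 and up to 7. Above a fold of 10, it was present at 50 of 128 iN1-ICD-only sites (39.1%, 30.6 to 48.1), against 36.0% (34.2 to 37.9) of 2691 others. Above a fold of 15 the order was the other way, with 10 of 25 iN1-ICD-only sites (40.0%, 21.1 to 61.3) and 47.0% (43.8 to 50.3) of 929 others.

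The motif was also more frequent the farther a site stood from other RBPJ summits, with 7.04% (6.004 to 8.20) of the 2172 sites under 1 kb and 14.8% (13.4 to 16.4) of the 2286 sites at 10 kb or more. This trend was not particular to the RBPJ motif, since the AP-1 motif was at 8.93% and 19.4% of these sites. The promoter share was 34.0% and 3.72%, and its part in the trend was not tested. The 4 words of the RBPJ motif were used unequally. Among 945 matches at iN1-ICD-only sites 25.2% were TGTGAGAA, against 15.2% of 3786 matches at the other summits (odds ratio 1.87, 1.58 to 2.22, adjusted p = 6.11e-12, Fisher's exact test over 4 words). CGTGGGAA made up 20.1%, against 31.7% (odds ratio 0.542, 0.456 to 0.645, adjusted p = 2.98e-12, Fisher's exact test). This comparison was not among the planned ones, and its unit was the match, with 945 matches at 883 sites. It was not adjusted for promoter share or for GC content, which at the median was 50.7% at iN1-ICD-only sites and 56.7% at the others. The nearest motif lay 27 bp from the summit at the median, against 18 bp at the other summits.

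Head-to-head pairs of RBPJ motifs, as printed above, were found at 19 iN1-ICD-only sites (0.238%, 0.144 to 0.372), against 0.133% of the other iN1-ICD summits. This did not pass the test (odds ratio 1.79, 1.04 to 3.11, p = 0.0524, Fisher's exact test). With up to 2 mismatches in the second copy the shares were 1.08% and 0.604% (odds ratio 1.80, 1.39 to 2.33, p = 2.05e-05, Fisher's exact test). Over bins of fold the odds ratio of the stricter pair was 4.36 (2.42 to 7.85), with few pairs per bin. That comparison was added after the data had been seen. Away from promoters the stricter pair did not pass the test (odds ratio 1.53, 0.862 to 2.72, p = 0.152, Fisher's exact test). No iN1-ICD-only site held 2 full copies, against 3 of the 29324 other iN1-ICD summits. Of the 19 sites, 13 lay at least 5 kb from any other RBPJ summit, 1 was overlapped by another RBPJ peak, 1 was at a promoter and 0 lay within 500 bp of a SOX2 summit of MB157R iEV.

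By fold, DTX1 led these 19 sites, followed by intron 5 of ME3, a malic enzyme, where CCDC81 has the nearest TSS (fold 12.5), a site 77.2 kb upstream of RPL38 (12.3), one near SLC44A1, a choline transporter (12.0), and one near SYF2 (11.3). The remaining 14 had folds of 3.94 to 7.52. They included EIF4A3, an RNA helicase (5.47 kb upstream), intron 2 of MAPT, which encodes the microtubule protein tau, and a site 65.6 kb downstream of the TSS of PRDM1, a transcriptional repressor. Sites called only in another list held few such pairs, compared without a test: 4 of 14968 in MB157R iEV (0.0267%, 0.00728 to 0.0684), 2 of 10436 in MB157 iSOX2 and 1 of 5085 in MB157 iEV.

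The AP-1 motif was more frequent at iN1-ICD-only sites than the RBPJ motif, and also above its share in flanks. It lay at 1176 iN1-ICD-only sites (14.7%, 13.98 to 15.5), against 17.7% of the other iN1-ICD summits and 3.77% of flanking windows of the sites (odds ratio 0.807, 0.753 to 0.864, adjusted p = 1.33e-09, Fisher's exact test). Over bins of fold the difference no longer passed the test (odds ratio 0.951, 0.885 to 1.02), and in lists of equal length it turned round (1.10, 1.03 to 1.18). Away from promoters the AP-1 motif was at 16.1% of iN1-ICD-only sites, against 24.7% of the others (odds ratio 0.586, 0.545 to 0.631), and the difference passed the test there over bins of fold too (0.682, 0.632 to 0.735). RBPJ and AP-1 motifs occurred together at 117 sites (1.47%), and 6031 sites (75.6%) held neither.

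Among the remaining motifs, several were rarer at iN1-ICD-only sites, including those of promoter DNA. The ETS motif CCGGAAG was present at 1.93%, against 4.90% of the other summits, the KLF/SP motif GGGGCGGGG at 2.09%, against 5.49%, and the NRF1 motif GCATGCGC at 0.326%, against 1.27%. All 3 passed the adjusted test, with odds ratios of 0.383, 0.368 and 0.255. The GATA motif AGATAAG was more frequent (2.55% against 1.69%, odds ratio 1.52, adjusted p = 3.25e-06, Fisher's exact test), but its share in flanks of the sites was 2.46%. The SOX motif, an A or T, another A or T, CAA, an A or T and G, was present at 17.9%, against 14.6% (odds ratio 1.28, 1.19 to 1.36, adjusted p = 2.59e-12, Fisher's exact test), and at 20.5% in flanks, so the sites were not above their surroundings. Away from promoters the SOX difference did not pass the test (odds ratio 1.07, adjusted p = 0.0764, Fisher's exact test). The GC content within 100 bp was 50.7% at the median, against 56.7%.

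The iN1-ICD-only sites differed in their motifs from RBPJ sites called only in another condition, in the RBPJ motif most from those of MB157R iEV and in the AP-1 motif most from those of both MB157 lists. The RBPJ motif was at 11.1% of iN1-ICD-only sites, against 5.43% (5.07 to 5.81) of the 14968 sites called only in MB157R iEV (odds ratio 2.17, 1.963 to 2.40, adjusted p = 1.39e-51, Fisher's exact test over 9 comparisons; 2.15 over bins of fold). AP-1 motifs went the other way, 14.7% at iN1-ICD-only sites and 20.9% at sites of MB157R iEV alone (odds ratio 0.653, 0.607 to 0.703). Against sites called only in MB157 iSOX2 and only in MB157 iEV, the AP-1 motif was the more frequent at iN1-ICD-only sites, with 14.7% and shares of 3.33% and 3.28% (odds ratios 5.03 and 5.10, adjusted p = 5.03e-173 and 2.34e-112, Fisher's exact test).

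For the RBPJ motif, the iN1-ICD-only sites and those of MB157 iEV alone held 11.1% and 11.2% (odds ratio 0.990, 0.886 to 1.11, adjusted p = 0.864, Fisher's exact test). The interval of this odds ratio leaves room for a small difference either way. Against sites of MB157 iSOX2 alone (9.89%) the odds ratio was 1.13 (1.03 to 1.25, adjusted p = 0.0118, Fisher's exact test), and 0.965 (0.875 to 1.07) over bins of fold. Above a fold of 10 the classes had few sites, 128 for iN1-ICD, 42 for MB157R iEV, 34 for MB157 iSOX2 and 39 for MB157 iEV. The RBPJ motif was at 39.1% (30.6 to 48.1), 9.52% (2.66 to 22.6), 20.6% (8.70 to 37.9) and 23.1% (11.1 to 39.3) of them, in that order, and promoters made up 3.12%, 45.2%, 20.6% and 7.69%. These are shares without a test.

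**Figure D5:**
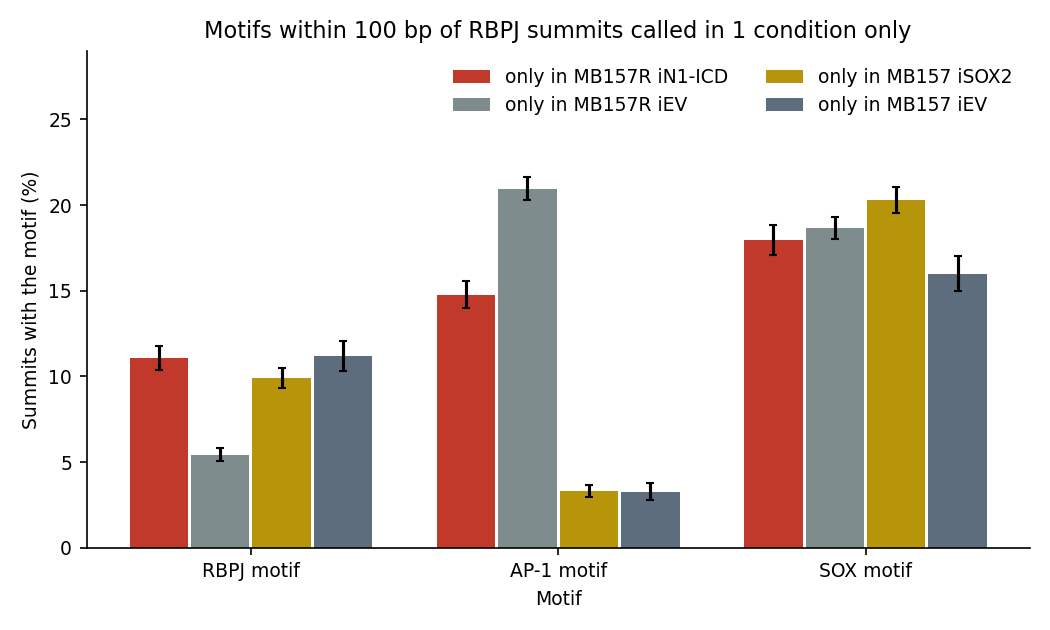
Share of RBPJ summits called in 1 condition only (y axis, %) with an RBPJ, AP-1 or SOX motif within 100 bp, with 95% exact binomial intervals, for iN1-ICD-only sites (left bar of each group) and the sites of MB157R iEV, MB157 iSOX2 and MB157 iEV alone. The RBPJ motif is lowest at sites of MB157R iEV alone (5.43%), and the AP-1 motif is above 14% in both MB157R classes and near 3.3% in both MB157 classes.

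Most iN1-ICD-only sites were distal, as were most sites called only in another list. Of the iN1-ICD-only sites, 1159 (14.5%, 13.8 to 15.3) lay within 1 kb of a protein-coding TSS, against 34.8% of the other iN1-ICD summits (odds ratio 0.319, 0.298 to 0.341, p = 5.26e-295, Fisher's exact test; 0.300 over bins of fold). The promoter share of sites called only in another list, not tested against this one, was 17.8% for MB157R iEV, 18.0% for MB157 iSOX2 and 16.6% for MB157 iEV. A further 3218 (40.4%) lay 5 to 50 kb and 2391 (29.99%) over 50 kb from a TSS, and 4185 (52.5%) were inside a protein-coding gene. The promoter share depended on what lay next to a site: it was 39.5% at 0.5 to 0.6 kb from another RBPJ summit and 3.72% at 10 kb or more. Per chromosome, iN1-ICD-only sites made up 16.1% (chromosome 22) to 24.7% (chromosome 15) of the iN1-ICD summits.

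SOX2 was less often close to iN1-ICD-only sites than to the other iN1-ICD summits. A SOX2 summit of MB157R iEV, the same cells without the NOTCH1 domain, lay less than 500 bp from 1823 iN1-ICD-only sites (22.9%, 21.9 to 23.8), against 52.0% of the other iN1-ICD summits (odds ratio 0.274, 0.259 to 0.290, smallest p written 1e-300, Fisher's exact test; 0.320 over bins of fold). For HA-SOX2 of MB157 iSOX2 the shares were 11.6% and 33.4% (odds ratio 0.261, 0.243 to 0.281). For sites called only in another list the shares are given without a test. Near SOX2 of MB157R iEV these were 39.2% for MB157R iEV alone, 5.00% for MB157 iSOX2 alone and 3.76% for MB157 iEV alone, and near HA-SOX2 14.7%, 39.6% and 25.3% in the same order. SOX2 and RBPJ lists of one line come from the same cells and inputs. The study reports wide overlap of SOX2 and RBPJ peaks in MB157R. The sites were chosen for having no RBPJ summit of those same cells nearby, which by itself can lower the shares near SOX2. The odds ratios and p value above therefore do not separate a property of the sites from the way they were chosen. In MB157R iN1-ICD itself SOX2 had 323 peaks in all, and 19 iN1-ICD-only sites (0.238%) were near one, against 0.784% of the others. The HA control of MB157 iEV, a single library with 77 peaks, was near 2 sites.

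The iN1-ICD-only sites with and without SOX2 in MB157R iEV differed in their motifs. The 1823 sites near SOX2 held an AP-1 motif at 20.8% (19.0 to 22.8) and a SOX motif at 26.2% (24.2 to 28.3), and the RBPJ motif at 6.25% (5.19 to 7.46). At the 6150 sites not near SOX2 the shares were 12.9% (12.1 to 13.8), 15.5% (14.6 to 16.4) and 12.5% (11.7 to 13.4). A MB157R iEV RBPJ peak overlapped 30.9% of the first and 18.2% of the second. The comparison was added after the data had been seen and has no test.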

How the data were processed

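Per the labels and the study's methods, hg38 was the genome to which the authors aligned the reads (BWA), and MACS2 was run once per group, on its libraries pooled, with pooled inputs as control. The 8 deposited lists hold peak starts, ends and summits in bp (other), a score (−log10 q times 10), the deposited ratio (fold enrichment at the summit), and the −log10 p and −log10 q of the authors. Read totals per library were not used here. Fold and −log10 p together gave the whole fragments at each summit and the local background, for 100% of RBPJ peaks.

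Sites were the summits of chromosomes 1 to 22 and X. Members, gene lists and tests were chosen with earlier results of these data known. Genes came from GENCODE 44, with protein-coding TSSs only. Named genes were the 25 sites of highest fold (1 per gene), NOTCH-list genes (1 is not reported here), the 10 genes with most sites and paired motifs. Motifs (19, of which 2 reversed controls) were searched in hg38 on both strands, and overlapping matches of different motifs were each kept. The reference has no repeat mask, so repeats were not assessed. Shares have exact binomial intervals, odds ratios Woolf intervals, and p values (Fisher's exact test, two-sided) were adjusted by Benjamini-Hochberg at 0.05. Functions were tested on simulated data. Alternatives were other distances, peak overlap, −log10 q of at least 5, lists of equal length, fewer lists, distal sites, bins of fold and a 50 bp window. Sequences were read with samtools 1.23.1 and pysam 0.24.0, statistics came from scipy 1.17.1 and statsmodels 0.14.6 (Python 3.11.15, pandas 2.3.3, numpy 2.4.6) and figures from matplotlib 3.10.9.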

Additional observations from a re-analysis of the deposited data

How the results depend on the processing

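No paired analysis was possible because peaks were called on pooled libraries, and no library could be left out for the same reason. The lower promoter share (14 alternatives), the lower shares near SOX2 of MB157R iEV and near HA-SOX2 (15 each) and the RBPJ motif against sites of MB157R iEV alone (5) kept direction and threshold. Every alternative kept the MB157R iEV RBPJ list in the choice, so the share near SOX2 of MB157R iEV stayed tied to it. For HA-SOX2 the odds ratio was 0.340 without the MB157 iSOX2 list and 0.498 when only the MB157R iEV list chose the sites. The limit of 1.2-fold in background kept all 23 chromosomes and so changed no value. It thus kept chromosome 8, where the median background of MB157R iN1-ICD over that of MB157R iEV was 1.09. On the other chromosomes this ratio was 0.883 to 0.962.

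The number of sites was 16504 at 100 bp, 2726 with −log10 q of at least 5 in the iN1-ICD list and 4386 with it in all 4 lists. The odds ratio of the RBPJ motif against other iN1-ICD summits was 1.06 at 1000 bp, 1.02 without overlapping peaks, 1.09 with −log10 q of at least 5 in the iN1-ICD list, 0.915 with it in all 4 lists (adjusted p = 0.0768, Fisher's exact test) and 1.40 over bins of fold. Combinations with bins of fold, added after seeing the data, gave 1.29 at distal sites, 1.63 at 1000 bp and 1.65 without overlapping peaks. That of AP-1 was 0.991 at 1000 bp, 0.956 without overlapping peaks, 0.951 over bins of fold and 1.10 in lists of equal length (adjusted p = 0.0104, Fisher's exact test), and with bins of fold 1.17 at 1000 bp, 1.15 without overlapping peaks and 0.682 at distal sites. Distal sites without bins gave 0.586. That of SOX was 1.07 at distal sites, and 1.06 there over bins of fold. For paired motifs it was 1.80 with 2 mismatches, and over bins of fold 4.36 and, with 2 mismatches, 3.32. Those over bins of fold were added after seeing the data, and at distal sites the stricter pair gave 1.53. Against sites of MB157 iEV alone the RBPJ motif gave 1.06 in a 50 bp window, 1.01 at distal sites and 1.06 at 1000 bp. Against MB157 iSOX2 alone it gave 0.965 over bins of fold, 1.10 at distal sites and 1.03 at 100 bp. The cause was not tested for any of these.

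Depth limits the sites: a median of 13 fragments at the summit leaves a missing call in another list compatible with a weaker peak there.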
